A study of Rattus norvegicus with 20 samples.

Results

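Dusp1, Dusp6, Spry2 and Etv5, 4 genes that MAP kinase signalling turns on and that feed back on it or carry it further, were measured by 7 of the 31099 probe sets of an Affymetrix rat array. The probe sets were those whose gene symbol in the annotated table of 17243 expressed probe sets was 1 of these 4 names: 1 for Dusp1, 3 for Dusp6, 1 for Spry2 and 2 for Etv5. That table held the probe sets called present in 10 of the 20 arrays, so any dimmer probe set of these genes was not analysed here.

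The arrays held RNA of subplate neurons, an early-born and mostly transient population beneath the cortical plate. The cells came from the posterior, mainly visual, neocortex of rat embryos at day 17 (E17). They were dissociated with papain and kept where they bound an antibody to the neurotrophin receptor p75, so the population is defined by that antigen. No strain, allele or drug treatment is given in the labels, and all 4 groups shared the medium, Neurobasal with B27 and chondroitin sulfate A without serum, and a density of 22100 cells per well on glass coverslips. Cocultured coverslips stood on wax spacers above a dense cortical feeder layer of 650000 cells per well, made from the cells that had not bound the antibody, so that medium but no contact was shared. Control coverslips stood above wells that held wax and medium without cells. The feeder wells were fed after 4 days in vitro, the coverslips were added 24 h later, and RNA was taken after 24 or 96 h without further feeding, generally from 6 pooled coverslips. The feeder layer induces synapses, and the study compared 24 h, before the main wave of synapse formation, with 96 h. Each of the 4 groups had 5 replicates, which the labels call biological. Every array was made from 100 ng of RNA with 2 cycles of amplification.

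ERK, a MAP kinase, is switched on by growth factor receptors through Ras, Raf and MEK, and in neurons also by calcium that enters during activity. Active ERK drives transcription of genes that limit it, so that a strong signal raises its own brakes and the messages of those brakes are read as a record of recent signalling. Dusp1 encodes a nuclear phosphatase of ERK, p38 and JNK and is itself an immediate-early gene. Dusp6 encodes a cytoplasmic phosphatase selective for ERK, and Spry2 an inhibitor that acts between receptor tyrosine kinases and the kinase cascade. Etv5 encodes an ETS transcription factor of the PEA3 group that fibroblast growth factor signalling induces in several embryonic tissues.

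The 4 genes were matched by symbol to RefSeq, and the 250 bases before each RefSeq transcription start are printed because 3 of the 4 genes fell on every probe set at 24 h and because these are the stretches in which response elements of ERK and calcium signalling are usually sought. They are given 5′ to 3′ on the gene's strand in build GRCr8. Capitals mark matches to the searched motifs. The Dusp1 window is chr10:17184603-17184852 (plus strand), that of Dusp6 chr7:35979354-35979603 (plus), that of Spry2 chr15:89111927-89112176 (minus) and that of Etv5 chr11:92113013-92113262 (plus).
Dusp1: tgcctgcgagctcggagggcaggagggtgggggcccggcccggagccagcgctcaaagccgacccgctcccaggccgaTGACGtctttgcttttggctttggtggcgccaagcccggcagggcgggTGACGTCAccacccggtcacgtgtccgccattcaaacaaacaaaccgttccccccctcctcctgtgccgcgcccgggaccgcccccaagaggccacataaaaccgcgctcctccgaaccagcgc
Dusp6: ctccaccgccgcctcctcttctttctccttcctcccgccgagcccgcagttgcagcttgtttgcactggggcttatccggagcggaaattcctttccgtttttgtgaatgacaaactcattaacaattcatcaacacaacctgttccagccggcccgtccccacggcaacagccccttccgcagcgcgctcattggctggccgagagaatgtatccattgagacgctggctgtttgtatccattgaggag
Spry2: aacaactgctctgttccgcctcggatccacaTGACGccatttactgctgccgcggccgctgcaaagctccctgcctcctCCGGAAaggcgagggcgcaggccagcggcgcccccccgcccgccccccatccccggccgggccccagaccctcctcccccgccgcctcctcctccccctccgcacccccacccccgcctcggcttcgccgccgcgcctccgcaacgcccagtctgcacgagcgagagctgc
Etv5: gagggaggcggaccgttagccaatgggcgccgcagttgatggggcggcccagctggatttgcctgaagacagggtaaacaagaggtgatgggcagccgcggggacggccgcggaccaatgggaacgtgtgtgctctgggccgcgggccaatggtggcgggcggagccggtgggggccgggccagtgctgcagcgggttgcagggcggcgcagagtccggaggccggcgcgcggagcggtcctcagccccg
The motifs were chosen after the sequences had been seen, and both strands were searched. The cAMP response element TGACGTCA was found once, in the Dusp1 window, from -124 to -117 before the start, and 1.59% of 33469 RefSeq promoter windows of that length hold it. Its half-site TGACG, which overlaps the full element, also matched in the Dusp1 window from -172 to -168 and in the Spry2 window from -219 to -215, and 18.2% of the windows hold a half-site. The ETS motif CCGGAA matched from -171 to -166 in the Spry2 window (12.6% of windows). The AP-1 motif TGANTCA (6.34% of windows) and the CArG box (1.5%) matched in none of the 4. RefSeq gives Spry2 a second start, whose window held no match to any of these motifs. A match is a description of letters, and no binding was measured here.

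The deposited value of a probe set on an array is a ratio to that probe set's median over the 20 arrays, on a linear scale where 1 is the median. Levels of different genes or of different probe sets can therefore not be compared. Differences are log2 values, cocultured minus control, and the error after ± is limma's standard error unless SD is written. A probe set was called where its p, adjusted by Benjamini-Hochberg over 31042 probe sets, was under 0.05. Precision is set by the 5 arrays in a group. Transcripts added before hybridisation, 18 probe sets, averaged -0.54 ± 0.67 (log2 ratio; SD, n = 5) on the control arrays of 24 h against 0.32 ± 0.65 with coculture; the values at 96 h were -0.63 ± 0.66 against 0.70 ± 0.64. They were higher in the coculture of 5 of 5 same-numbered pairs at both times (difference 0.86, exact permutation p = 0.0794, and 1.33, exact permutation p = 0.0238, two-sided). The permutations ignored the pairs, so their p includes the spread between replicate numbers. Because of the difference in these transcripts, each coculture effect of a member is also given with their mean as a covariate where that ends a call or moves the value by over 1.5 times. The median expressed probe set was lower in coculture by 0.13 at 24 h and 0.26 at 96 h on the log2 scale, and by 0.016 and 0.058 after cyclic loess normalisation. The cocultured arrays of replicate 5 stood apart, with an SD over expressed probe sets of 0.773 at 24 h and 0.829 at 96 h where the other arrays had at most 0.545.

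Markers of other cells moved with coculture, counted over genes that had an expressed probe set named for that gene alone. All 7 measured radial glia genes rose at both times, among them Sox2, Ptprz1 and Fabp7, and their mean log2 ratio per array ran from -1.82 to -0.63 in controls and from 0.46 to 1.17 in cocultures at 24 h, and from -1.80 to -1.34 and from 0.68 to 1.20 at 96 h. Of 8 measured astrocyte genes 3 rose at 24 h and 6 at 96 h, and of 8 oligodendrocyte lineage genes 4 rose at both times. Of 8 GABAergic interneuron genes 3 rose at both times and 2 fell at 96 h. Of 2 meningeal fibroblast genes 1 rose at both times, and the 1 measured endothelial gene rose at 96 h. Of all named genes 2.76% rose at 24 h and 7.37% at 96 h. The pan-neuronal list had 1 of 10 genes that rose and none that fell at 24 h, and 1 that rose and 2 that fell at 96 h, where 7.75% and 41.5% of all named genes fell at those times. With the replicate number as a block, a term that compares same-numbered arrays, 2 pan-neuronal genes rose and 3 fell at 24 h. At 96 h 1 rose and 5 fell with it. In that fit 9.12% of all named genes rose and 38.8% fell at 24 h, and 13% rose and 56.9% fell at 96 h. With the hybridisation covariate 3 rose and none fell at 96 h, where 9.43% of all named genes rose and 9.42% fell. Of the listed subplate genes only Ccn2 and Nr4a2 were measured by a named expressed probe set. At 24 h they differed by -1.51 ± 0.53 (adjusted p = 0.0697) and -0.74 ± 0.26 (adjusted p = 0.0707). With the block both fell at 24 h (adjusted p = 7.64e-07 and 0.0124). At 96 h Ccn2 fell by 1.84 ± 0.53 (adjusted p = 0.00855), while Nr4a2 had 0.015 ± 0.26 (adjusted p = 0.966). Under the hybridisation covariate Ccn2 had -0.48 at 24 h (adjusted p = 0.353) and -0.26 at 96 h (adjusted p = 0.651). In these bulk samples fewer neurons and less of a message per neuron cannot be told apart. The part of the glial and other cell markers in the results was not tested.

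The first question was whether the feedback genes differ once neurons have spent 24 h over feeder cells. They had fallen: 6 of the 7 member probe sets were lower in cocultures, 3 of these 6 being of Dusp6. In that comparison 2.1% of all tested probe sets and 3.48% of the expressed ones fell. The members had been chosen with earlier results of these data known, so the counts here are descriptions and not tests against such shares. In each of the 6 every cocultured array lay below every control array, a separation seen in 3.12% of all probe sets and 5.03% of the expressed ones. At 96 h that held for 4 of the 7, beside 10.5% of all and 18.1% of expressed probe sets. At 24 h the falls ran from 1.81-fold for Spry2 to 3.81-fold for Dusp6, and the 1 member probe set that did not pass was the other one of Etv5. At 96 h, 5 of the 7 were lower, where 17.9% of all probe sets and 30% of the expressed ones fell, so the background was much higher at that time. The plot of all arrays shows each member by group.

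**Figure D1:**
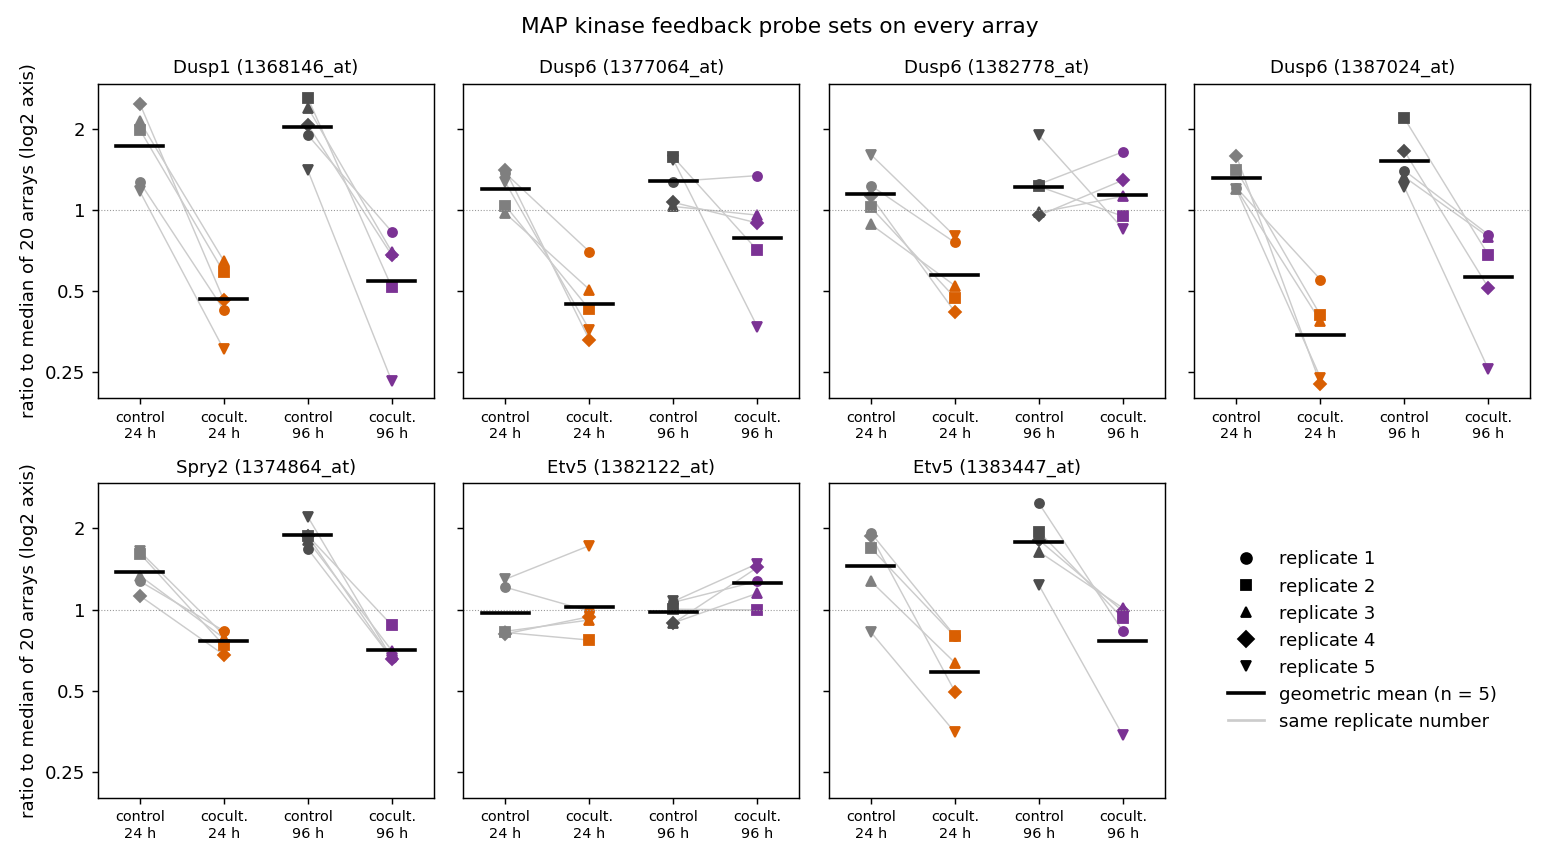
Ratio of each of the 7 member probe sets to its median over 20 arrays (log2 axis) in control and cocultured subplate neurons at 24 and 96 h, with a marker shape for each replicate number, grey lines between same-numbered arrays and a black bar at the geometric mean of 5 arrays. At 24 h the cocultured arrays lie below all controls in every panel but that of Etv5 probe set 1382122_at, and at 96 h they do so for Dusp1, Dusp6 probe set 1387024_at, Spry2 and Etv5 probe set 1383447_at.

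Dusp1, the nuclear phosphatase, was read by probe set 1368146_at, whose target is a full-length mRNA that the annotation also lists under the older symbol Ptpn16. In replicates 1 to 5 its ratio was 1.27, 1.98, 2.13, 2.47 and 1.17 in the controls at 24 h and 0.426, 0.587, 0.647, 0.463 and 0.304 in the cocultures. By 96 h the controls had 1.89, 2.60, 2.39, 2.06 and 1.40 and the cocultures 0.830, 0.517, 0.699, 0.679 and 0.232. At both times the lowest control was above the highest coculture, and replicate 5 was the lowest array of every group. The fall was 3.68-fold at 24 h (-1.88 ± 0.30 on the log2 scale, from a group mean of 0.79 ± 0.48 to -1.09 ± 0.43, SD, n = 5; adjusted p = 0.000933). It was 3.73-fold at 96 h (-1.90 ± 0.30, from 1.02 ± 0.35 to -0.88 ± 0.73; adjusted p = 0.000257). Both differences had the same sign in 5 of 5 same-numbered pairs. With the hybridisation covariate the difference at 96 h was -1.10 (adjusted p = 0.00591).

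Dusp6, the ERK phosphatase, was read by 3 probe sets that did not give the same size of change. Probe set 1387024_at targets the full-length mRNA, and the others, 1377064_at and 1382778_at, target expressed sequence tags that were placed in the same gene cluster. Where these tags, and those read for Spry2 and Etv5, lie in their transcripts was not analysed here, since no probe sequences were at hand. On 1387024_at the controls at 24 h had ratios of 1.21, 1.40, 1.20, 1.58 and 1.19 and the cocultures 0.552, 0.407, 0.387, 0.227 and 0.239. At 96 h the controls had 1.40, 2.18, 1.32, 1.65 and 1.21 and the cocultures 0.810, 0.681, 0.794, 0.515 and 0.257. The groups did not overlap at either time, with cocultured replicates 4 and 5 lowest. The fall was 3.81-fold at 24 h (-1.93 ± 0.28, from 0.39 ± 0.18 to -1.55 ± 0.55; adjusted p = 0.00036), the largest among the members, and 2.68-fold at 96 h (-1.42 ± 0.28, from 0.60 ± 0.33 to -0.82 ± 0.69; adjusted p = 0.00163). At 96 h the call did not hold with the hybridisation covariate (-0.93, adjusted p = 0.0525) or after cyclic loess normalisation (-0.39, adjusted p = 0.446).

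On Dusp6 probe set 1377064_at the controls at 24 h had 1.37, 1.04, 0.971, 1.40 and 1.26 and the cocultures 0.700, 0.428, 0.507, 0.330 and 0.360, with no overlap. At 96 h the controls had 1.27, 1.57, 1.03, 1.07 and 1.53 and the cocultures 1.34, 0.709, 0.956, 0.894 and 0.369, where cocultured replicate 1 lay among the controls and replicate 5 far below them. The fall was 2.67-fold at 24 h (-1.42 ± 0.26; adjusted p = 0.00391, but 0.111 after cyclic loess). At 96 h it was 1.62-fold (-0.70 ± 0.26; adjusted p = 0.0491), with 4 of 5 pairs lower. That last call rested on single arrays: it was lost in 16 of 20 fits that each left out 1 array, it was -0.42 (adjusted p = 0.16) without cocultured replicate 5 at 96 h, and after cyclic loess the sign turned (0.089, adjusted p = 0.885). It was lost too with the hybridisation covariate (-0.65, adjusted p = 0.243).

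On Dusp6 probe set 1382778_at the controls at 24 h had 1.23, 1.02, 0.883, 1.12 and 1.60 and the cocultures 0.757, 0.473, 0.524, 0.419 and 0.799. Those of 96 h were 1.24, 1.22, 0.978, 0.953 and 1.89 in controls and, in cocultures, 1.64, 0.947, 1.12, 1.29 and 0.852. The groups were apart at 24 h and interleaved at 96 h, where cocultured replicates 1, 3 and 4 lay above their same-numbered controls. The fall was 2.00-fold at 24 h (-0.998 ± 0.23; adjusted p = 0.016). It missed the threshold after cyclic loess (-0.90, adjusted p = 0.0681) and without cocultured replicate 4 at 24 h (-0.88, adjusted p = 0.0501). At 96 h the difference was -0.10 ± 0.23 (95% interval -0.57 to 0.37; adjusted p = 0.734) and -0.61 with the hybridisation covariate (adjusted p = 0.0789).

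Spry2, the Sprouty inhibitor, was read by probe set 1374864_at, labelled Spry2_predicted. Its Entrez identifier is that of Spry2, while the description of its target sequence names Ltbp1, an extracellular binding protein of latent TGF-beta. The array's probe set named for Ltbp1, 1367912_at, differed by 0.091 ± 0.13 at 24 h (adjusted p = 0.704) and by -0.055 ± 0.13 at 96 h (adjusted p = 0.737), and its log2 ratios correlated with those of 1374864_at at r = 0.0292 over 20 arrays. Without probe sequences these values do not settle which gene 1374864_at reads, and Spry2 in this report stands for its label. The Spry2 ratios at 24 h were 1.27, 1.61, 1.34, 1.13 and 1.64 in controls and 0.834, 0.737, 0.784, 0.680 and 0.806 in cocultures. At 96 h they were 1.68, 1.88, 1.80, 1.88 and 2.21 in controls and 0.660, 0.875, 0.705, 0.657 and 0.661 in cocultures. The groups lay apart at both times, and the SD within a group was 0.12 to 0.23 on the log2 scale. The fall was 1.81-fold at 24 h (-0.85 ± 0.12, from 0.47 ± 0.23 to -0.38 ± 0.12; adjusted p = 0.000306) and 2.66-fold at 96 h (-1.41 ± 0.12, from 0.91 ± 0.14 to -0.50 ± 0.18; adjusted p = 3.13e-07), in 5 of 5 pairs each. With the hybridisation covariate the differences were -0.91 and -1.50.

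Etv5, the ETS factor, had 2 probe sets, both labelled Etv5_predicted, and they did not move together. Both target expressed sequence tags, and the description of 1383447_at, but not that of 1382122_at, calls the target highly similar to ERM, the human protein's older name. On 1383447_at the controls at 24 h had ratios of 1.92, 1.69, 1.27, 1.88 and 0.825 and the cocultures 0.799, 0.795, 0.636, 0.497 and 0.351. Later, at 96 h, the controls had 2.48, 1.94, 1.64, 1.81 and 1.23 and the cocultures 0.832, 0.929, 1.01, 0.986 and 0.342. The highest coculture lay below the lowest control at both times, by a narrow margin at 24 h, and replicate 5 was the lowest array of each group. The fall was 2.46-fold at 24 h (-1.30 ± 0.30, from 0.54 ± 0.51 to -0.77 ± 0.50; adjusted p = 0.0192) and 2.32-fold at 96 h (-1.21 ± 0.30, from 0.83 ± 0.37 to -0.38 ± 0.66; adjusted p = 0.00764), in 5 of 5 pairs each. With the hybridisation covariate it was -0.81 at 24 h (adjusted p = 0.0485) and -0.46 at 96 h (adjusted p = 0.33). The call at 24 h was lost without control replicate 1 (adjusted p = 0.0534), 2 (0.0606) or 4 (0.065), or without cocultured replicate 4 (0.0505) or 5 (0.0533) of that time.

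On Etv5 probe set 1382122_at the controls at 24 h had 1.21, 0.823, 0.831, 0.813 and 1.30 and the cocultures 0.987, 0.771, 0.915, 0.941 and 1.73. At 96 h the controls had 1.06, 1.003, 0.893, 0.890 and 1.07 and the cocultures 1.27, 0.997, 1.15, 1.43 and 1.48. The groups overlapped at both times, and at 24 h replicate 5 was the highest array of both groups, the reverse of its place on the other Etv5 probe set. The difference was 0.075 ± 0.19 at 24 h (95% interval -0.32 to 0.47; adjusted p = 0.836) and 0.35 ± 0.19 at 96 h (95% interval -0.040 to 0.75; adjusted p = 0.138), so a fall of the size seen on 1383447_at lies outside both intervals. With the replicate number as a block this probe set rose at 96 h (0.35, adjusted p = 0.0217), with 4 of 5 pairs higher, beside 34.1% of all probe sets that rose in that fit. With the hybridisation covariate its differences were -0.26 at 24 h (adjusted p = 0.258) and -0.17 at 96 h (adjusted p = 0.544).

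**Figure D2:**
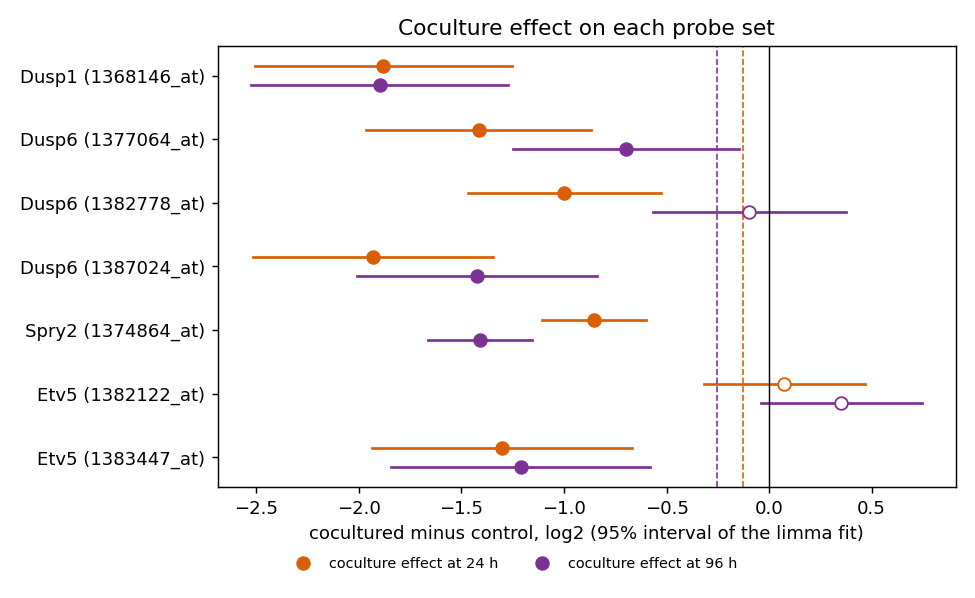
Difference between cocultured and control arrays on the log2 scale for each member probe set at 24 h (orange) and 96 h (purple), with the 95% interval of the limma fit; filled points passed the test at adjusted p under 0.05, and dashed lines mark the median of all expressed probe sets at each time. Estimates run from -1.93 to 0.075 at 24 h and from -1.90 to 0.35 at 96 h.

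The disagreement between probe sets of the same gene was then measured within each array, as the log2 ratio of one probe set minus that of the other. These differences were chosen because the probe sets had been seen to disagree, so they are given as descriptions with no test. For Etv5, 1383447_at minus 1382122_at was 0.58 ± 0.73 (SD, n = 5) on the control arrays of 24 h and -0.80 ± 0.91 on the cocultured ones (difference -1.38). At 96 h it was 0.86 ± 0.39 and -0.71 ± 0.81 (difference -1.56). For Dusp6, 1387024_at minus 1382778_at was lower in cocultures by 0.93 at 24 h and by 1.33 at 96 h. The gap of 1387024_at to 1377064_at was lower by 0.52 and 0.73. All of these differences were lower in the coculture of 5 of 5 same-numbered pairs. They were smaller with the hybridisation covariate, a fit added after the data had been seen: -0.55 at 24 h and -0.29 at 96 h for Etv5, -0.28 and -0.33 for Dusp6 1387024_at minus 1382778_at, and -0.23 and -0.29 for 1387024_at minus 1377064_at. The ratio of 3′ to 5′ probe sets, a sign of RNA integrity and of amplification, differed between cocultures and controls by 0.086 and 0.082 on the log2 scale for beta-actin (exact permutation p = 0.659 and 0.627) and by 0.14 and 0.22 for GAPDH (exact permutation p = 0.325 and 0.127). These permutations also ignored the pairs. At each time the ratio was higher in the coculture of 3 of 5 pairs for beta-actin and of 4 of 5 for GAPDH.

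**Figure D3:**
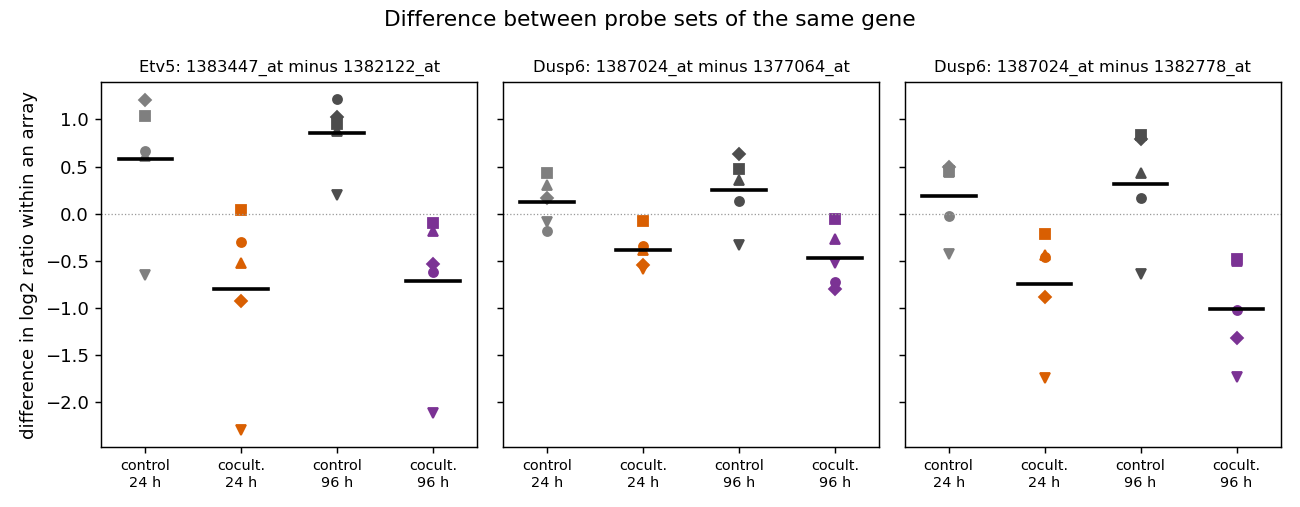
Log2 ratio of one probe set minus that of another of the same gene on each array, for the Etv5 pair and for the Dusp6 probe set 1387024_at against each of the other Dusp6 probe sets; marker shapes stand for replicate numbers 1 to 5 (circle, square, upward triangle, diamond, downward triangle) and black bars for the mean of 5 arrays. For Etv5 the group means are 0.58 and -0.80 at 24 h and 0.86 and -0.71 at 96 h, with replicate 5 lowest in every group.

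The next comparisons asked what happened to the members between 24 and 96 h. They use the same arrays as the coculture effects, so the values are given side by side and not as separate evidence. In controls none of the 7 was called, where 0.145% of all probe sets were called in either direction, and the unadjusted p was under 0.05 for Spry2 alone. Spry2 was 0.44 ± 0.12 higher at 96 h (adjusted p = 0.238), with every array at 96 h above every array at 24 h and 5 of 5 pairs higher; with the replicate number as a block it was called (adjusted p = 0.0223; 2.5% of all probe sets were), and with the hybridisation covariate also (adjusted p = 0.0451; 1.47% of all). In cocultures 1 member was called, Dusp6 probe set 1382778_at, beside 0.416% of all probe sets that rose there. It rose by 0.99 ± 0.23 (adjusted p = 0.0356), with no overlap between the times, though 7 of the 20 fits without 1 array lost the call, with an adjusted p of up to 0.127. The other Dusp6 probe sets were higher at 96 h in 5 of 5 pairs, by 0.81 ± 0.26 (1377064_at, adjusted p = 0.185) and 0.72 ± 0.28 (1387024_at, adjusted p = 0.288). With the replicate number as a block, all 3 Dusp6 probe sets rose (adjusted p = 0.00141 for 1382778_at, 0.0257 for 1377064_at and 0.031 for 1387024_at), beside 5.57% of all probe sets. Under the covariate 1387024_at was called as well as 1382778_at (0.86, adjusted p = 0.0358; 3.12% of all probe sets rose). Without cocultured replicate 5 at 96 h all 3 were called too. The cocultured times differed by 0.21 ± 0.30 for Dusp1, -0.12 ± 0.12 for Spry2 and 0.29 ± 0.19 and 0.38 ± 0.30 for Etv5 (1382122_at and 1383447_at), none of them called. With the covariate the values for Dusp1 and these Etv5 probe sets were 0.44, 0.14 and 0.59, again with no call.

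Whether the coculture effect differed between 24 and 96 h was tested as an interaction, in which 0.0193% of all probe sets and none of the members were called. Spry2 fell further at 96 h by 0.56 ± 0.17 (adjusted p = 0.684), and this was called with the replicate number as a block (adjusted p = 0.0409), where 3.17% of all probe sets were called. Dusp6 1382778_at moved the other way, by 0.90 ± 0.32 (adjusted p = 0.887; 0.0553 with the block). The unadjusted p was under 0.05 for these probe sets alone. The interaction was 0.72 ± 0.37 and 0.51 ± 0.40 for the other Dusp6 probe sets, -0.018 ± 0.42 for Dusp1, and 0.28 ± 0.27 and 0.090 ± 0.43 for Etv5; with the covariate the values for Dusp1 and Etv5 were 0.26, 0.097 and 0.35, none called.

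Ordered by group mean, the probe sets of Dusp1 and Spry2, 1387024_at and 1377064_at of Dusp6 and 1383447_at of Etv5 had both cocultures below both controls. For Dusp1 the order was coculture at 24 h (-1.09), coculture at 96 h (-0.88), control at 24 h (0.79) and control at 96 h (1.02), and the neighbours of the same treatment did not pass the test. For Spry2 the lowest group was the coculture at 96 h (-0.50), followed by the coculture at 24 h (-0.38), the control at 24 h (0.47) and the control at 96 h (0.91). On Dusp6 1382778_at the coculture at 24 h stood alone at -0.80, and the other groups lay between 0.19 and 0.28. On Etv5 1382122_at the coculture at 96 h was highest at 0.33 and the others lay between -0.040 and 0.035.

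Over the 20 arrays the log2 ratios of Dusp1 correlated with those of Dusp6 1387024_at at r = 0.926 and of Etv5 1383447_at at r = 0.904, and 0.712 and 0.712 remained once the group means were taken out. Spry2 correlated with Dusp1 at 0.815 over all arrays but at -0.277 within groups. The Etv5 probe sets correlated with each other at -0.493, and at -0.55 within groups. These are descriptions over 20 arrays that share groups, culture numbers and normalisation. By the highest Pearson r among 11244 probe sets of single named genes, the probe sets most like Dusp1 were those of Nfil3 (0.955), Prxl2b (0.954) and Armh4 (0.954), and those most like Spry2 were Klf4 (0.964), Bdnf (0.953) and Pam (0.949). Dusp6 1387024_at was most like Adrb1 (0.97), Adcy8 (0.957) and Rab5if (0.955). Dusp6 1377064_at was most like Fos (0.943), Insig1 (0.916) and Atp2b2 (0.914), and 1382778_at most like Fos (0.831), Fstl1 (0.822) and Cyp51 (0.818). Etv5 1383447_at was most like Mapk10 (0.955), Atp2a2 (0.954) and Cul3 (0.951), and 1382122_at most like Cdca2 (0.933), Evl (0.91) and Synpo2 (0.909).

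The rest of the pathway was described with 1 value per gene, the mean of its probe sets, adjusted over 8049 named genes. Leaving out the 4 members, 84 genes of 9 lists were measured. At 24 h 6 of them rose and 12 fell, with a median difference of -0.14, where 2.76% of all named genes rose and 7.75% fell and their median was -0.19. At 96 h 9 rose and 33 fell, with a median of -0.24, where 7.37% rose, 41.5% fell and the median was -0.34. All these counts come from the fit without a block or covariate. Falls at 96 h were fewer with the covariate, as with 1 in place of 10 of 18 ERK cascade genes and 2 in place of 6 of 10 JNK and p38 genes. Falls at 24 h were more with the block, as with 8 in place of 2 ERK cascade genes. For each list below, counts with the block or the covariate are given where they differ by over 1.5 times. With the block, 9.12% of all named genes rose and 38.8% fell at 24 h, and 13% and 56.9% at 96 h. With the covariate, 6.87% rose and 4.7% fell at 24 h, and 9.43% and 9.42% at 96 h. These shares and those of the main fit are the background of each list count below.

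Relatives of the members gave few calls. Of 3 other MAP kinase phosphatases none was called at 24 h, when Dusp8 had -0.34 ± 0.12 (adjusted p = 0.0747) and Dusp5 -0.35 ± 0.15 (adjusted p = 0.124); with the block both fell, and with the covariate Dusp5 did (adjusted p = 0.0203). At 96 h Dusp5 fell by 0.41 ± 0.15 (adjusted p = 0.0291) and Dusp2 by 0.31 ± 0.12 (adjusted p = 0.0453), and with the covariate only Dusp5 was called. Of 4 other Sprouty and Spred inhibitors none was called at 24 h, and Spry1 alone fell at 96 h (-0.48 ± 0.17, adjusted p = 0.0273), a call that the covariate ended (-0.14, adjusted p = 0.615). With the block 2 of these 4 fell at 96 h, and Spred3 rose (0.24, adjusted p = 0.025). The other PEA3 factors, Etv4 and Etv1, were called at neither time: Etv4 had 0.75 ± 0.30 at 24 h (adjusted p = 0.106) and 0.59 ± 0.30 at 96 h (adjusted p = 0.107), and Etv1 0.46 ± 0.19 (adjusted p = 0.11) and 0.068 ± 0.19 (adjusted p = 0.769). With the block both rose at 24 h (adjusted p = 0.000519 and 0.00954) and Etv4 at 96 h (adjusted p = 0.00187), while with the covariate Etv4 had 0.18 and -0.29.

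Of 9 measured genes listed as inhibitors of receptors and Ras, 1 rose and 1 fell at 24 h, and 1 rose and 4 fell at 96 h. The list also held Rasgrp1, an activator of Ras, which was called at neither time (-0.40 ± 0.22 and -0.27 ± 0.22). Cbl, a ubiquitin ligase of activated receptors, fell at both times (-0.82 ± 0.20, adjusted p = 0.0126, and -0.84 ± 0.20, adjusted p = 0.00297). Rasa3, a Ras GTPase-activating protein, rose at both (0.67 ± 0.20, adjusted p = 0.035, and 0.98 ± 0.20, adjusted p = 0.000976). Errfi1, a feedback inhibitor of the EGF receptor, fell by 1.38 ± 0.22 at 96 h (adjusted p = 0.000136), and Pebp1, which binds Raf, by 0.67 ± 0.16 (adjusted p = 0.00353). With the covariate 1 of the 9 fell at 96 h, namely Errfi1 (-0.84, adjusted p = 0.00452). Under it Cbl had -0.56 (adjusted p = 0.0865) and Pebp1 -0.16 (adjusted p = 0.191). With the block 2 rose and 4 fell at 24 h, Rasgrp1 among those that fell (adjusted p = 0.00109).

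Of 18 genes of the ERK cascade itself, 1 rose and 2 fell at 24 h. Gab1, a docking protein between receptors and the cascade, rose by 1.06 ± 0.13 (adjusted p = 2.66e-05), and the MEK gene Map2k2 was among those that fell (-0.72 ± 0.21, adjusted p = 0.0375). At 96 h 10 of the 18 fell, among them the adaptor Grb2 (-0.57 ± 0.12, adjusted p = 0.00113) and the ERK gene Mapk3 (-0.95 ± 0.23, adjusted p = 0.0031), and Gab1 rose (1.37 ± 0.13, adjusted p = 4.19e-07). With the covariate 1 of the 18 fell at each time, at 96 h Grb2 (-0.29, adjusted p = 0.0307). Under it Map2k2 had -0.29 at 24 h (adjusted p = 0.0945) and Mapk3 -0.36 at 96 h (adjusted p = 0.194). With the block 8 fell at 24 h and 2 rose at 96 h. Of 10 genes of the JNK and p38 cascades, Mapk10, a JNK gene of neurons, fell at 24 h (-0.53 ± 0.14, adjusted p = 0.0248), and 6 fell at 96 h, including Mapk10 (-0.78 ± 0.14, adjusted p = 0.000499) and Map2k6 (-0.60 ± 0.13, adjusted p = 0.0014). With the covariate 0 and 2 of the 10 fell, with -0.37 for Mapk10 at 24 h (adjusted p = 0.0735) and -0.38 for Map2k6 at 96 h (adjusted p = 0.0414), and with the block 4 fell at 24 h.

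Of 17 measured immediate-early genes, targets of ERK and calcium signalling, 7 fell at 24 h and 8 at 96 h, and none rose. Of all named genes 7.75% fell at 24 h and 41.5% at 96 h, so the count at 96 h stood near that share. Klf4 fell by 1.49 ± 0.19 at 24 h (adjusted p = 3.8e-05) and also at 96 h (-2.12 ± 0.19, adjusted p = 2.07e-07). Fos fell by 4.65 ± 0.67 at 24 h (adjusted p = 0.00016), Klf6 by 1.30 ± 0.21 (adjusted p = 0.000501) and Nr4a3 by 1.01 ± 0.19 (adjusted p = 0.00238). At the later time Ier5 fell by 2.12 ± 0.21 (adjusted p = 7.45e-07) and Ier2 by 1.44 ± 0.33 (adjusted p = 0.00231). With the covariate 4 fell and 1 rose at 96 h, and Ier2 had -0.63 (adjusted p = 0.144). With the block 1 rose at that time.

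Receptors and ligands moved in both directions. Of 9 receptor tyrosine kinases 4 rose at 24 h and none fell. Pdgfra, the receptor that marks oligodendrocyte precursors, rose by 3.86 ± 0.33 (adjusted p = 4.5e-07). It is itself 1 of the 4 genes of that lineage counted above as risen. Fgfr2 rose by 1.13 ± 0.25 (adjusted p = 0.00756), Igf1r by 0.60 ± 0.15 (adjusted p = 0.0167) and Fgfr3 by 1.32 ± 0.41 (adjusted p = 0.0447; 0.50 with the covariate, adjusted p = 0.172). At 96 h 4 rose and Ret, the receptor of the GDNF family, fell (-1.01 ± 0.18, adjusted p = 0.000309); with the covariate 2 fell, and Fgfr3 had 0.45 (adjusted p = 0.247). Of 12 measured genes of the ligand list Bdnf, which signals through TrkB, fell at both times (-1.86 ± 0.13, adjusted p = 4.25e-08, and -2.12 ± 0.13, adjusted p = 5.81e-09). The list also held Fgf13 and Fgf14, which encode intracellular proteins and not ligands of these receptors. The neurotrophin gene Ntf3 rose at 96 h by 1.57 ± 0.30 (adjusted p = 0.000754), Fgf13 by 0.95 ± 0.26 (adjusted p = 0.0066) and Pdgfa by 0.40 ± 0.13 (adjusted p = 0.0177), the last a call that the covariate ended (0.071, adjusted p = 0.673). With the block 3 genes of the ligand list rose and 1 fell at 24 h. At 96 h 6 rose with it, Fgf13 among them, and 2 fell. The plot of the lists shows each measured gene.

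**Figure D4:**
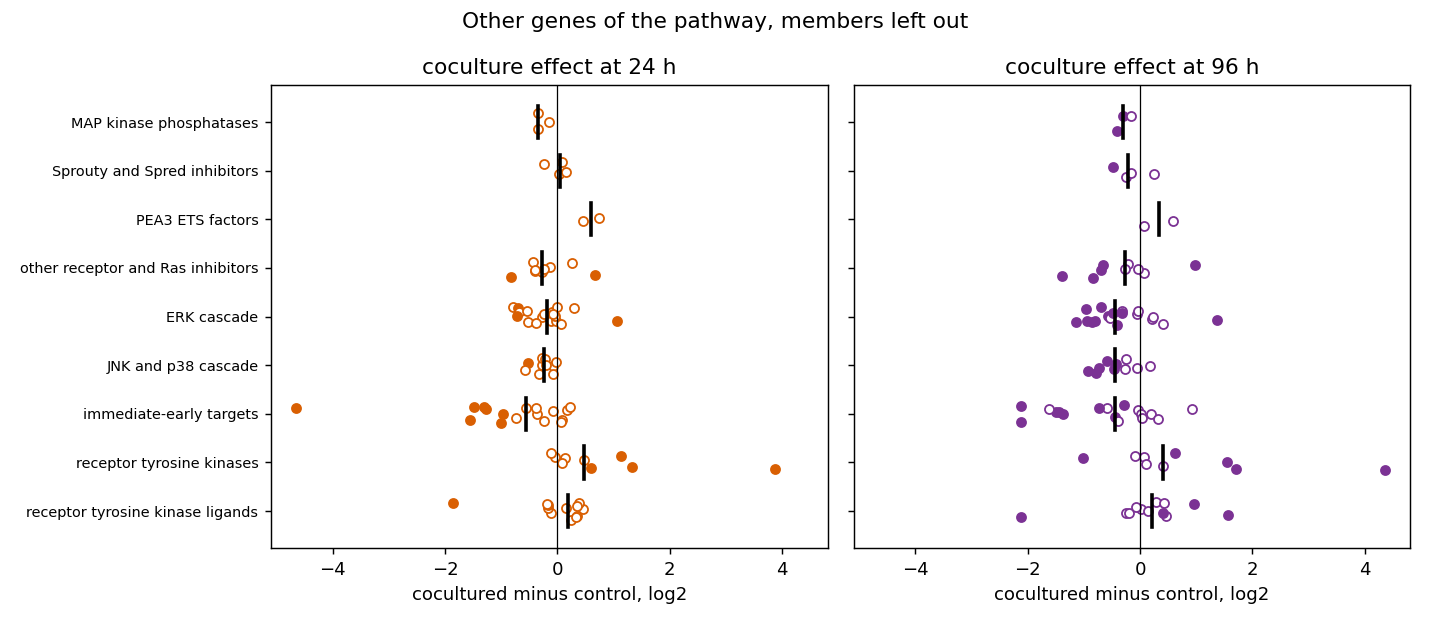
Difference between cocultured and control subplate neurons (log2) for each measured gene of 9 MAP kinase pathway lists at 24 h (orange) and 96 h (purple), the 4 members left out; filled points passed the test at adjusted p under 0.05 over 8049 genes, and black bars mark the list's median. In this fit, without a block or covariate, 6 genes rose and 12 fell at 24 h, and 9 rose and 33 fell at 96 h. Fos was lowest at 24 h (-4.65) and Pdgfra highest at both times (3.86 and 4.36).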

How the data were processed

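Each deposited value is a linear ratio: the authors ran RMA on the 20 arrays together and divided by the gene's median, per the file headers. The submitters' processing notes name RMA and MAS5 without versions; no source used here names a chip definition. On the file, the median over 20 arrays was within 0.001 of 1 for 31069 of 31099 probe sets. For the members, the authors' deposited group averages equalled geometric means of the arrays within 0.00049.

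Log2 ratios were fitted with limma 3.58.1 in R 4.3.3 as 4 group means over all 20 arrays (16 residual degrees of freedom), with Benjamini-Hochberg adjustment over 31042 probe sets, a set without the 57 controls of the chip. Symbols were updated through RefSeq tables of assembly GRCr8: 11147 probe sets by Entrez identifier and 108 by symbol, while 219 matched several genes, 5383 none, and 386 had a symbol that RefSeq does not hold. Lists use 1 mean per gene. The members and lists were chosen with earlier results of these data known. Named list genes are the 4 with the smallest p per list and time, or 3 for cell types.

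Same-numbered arrays deviated together: over 30 same-number pairs the correlation of deviations from group means was at least 0.243 (median 0.524, other pairs -0.23), so the numbers were taken to pair the samples, although the labels do not say what they share. The main fit ignores the pairing. Alternatives were the number as a fixed or random block, array weights, a robust prior, a fit of only the compared groups, expressed probe sets alone, equal array medians, cyclic loess, the hybridisation covariate and each array left out. A fit with both block and covariate, and a fit without replicate 5, were added after the data had been seen. The pipeline was tested on simulated data with independent arrays and changes planted at 24 h only. The simulation held neither the shared deviations of same-numbered arrays nor the difference in hybridisation controls, so it does not test the fits under these. Some genes of the lists enter the counts but are not reported by name here.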

Additional observations from a re-analysis of the deposited data

Results flagged for a closer look

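Within each group of 5 arrays the lowest and highest value of each member probe set was compared with its nearest neighbour. Of 28 such groups 2 held an array farther from the others than Dixon's critical value of 0.71 for the gap as a share of the group's range, where chance gives about 5 percent. The first was Spry2 on cocultured replicate 2 at 96 h, with a ratio of 0.875 where the nearest array had 0.705 (share 0.754); without that array the difference at 96 h was -1.49 (adjusted p = 3.34e-07 by limma). The second was Etv5 probe set 1383447_at on cocultured replicate 5 at 96 h, with a ratio of 0.342 where the nearest array had 0.832 (share 0.818). Without it the difference was -0.92 (adjusted p = 0.0206 by limma). That array also had the widest spread over expressed probe sets (SD 0.829) and the highest hybridisation controls (1.62 on the log2 scale).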

How the results depend on the processing

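With the replicate number as a fixed block, the count of 7 member probe sets called was 6 at 24 h and 6 at 96 h (5 fell and Etv5 1382122_at rose), 1 for time in controls, 3 for time in cocultures and 1 for the interaction, in a fit that called 28%, 62%, 2.5%, 14.2% and 3.17% of all 31042 probe sets. With a random block it was 1, 3 and 1 for the last 3 comparisons, beside 2.01%, 11.5% and 1.2% of all. The block changed no other member's call. With array weights, time in controls gave 1, time in cocultures 5 and the interaction 3, beside 7.37%, 11.8% and 3.14% of all. With the hybridisation covariate the effect at 96 h kept 2 (Dusp1 and Spry2), time in controls gave 1 and time in cocultures 2, beside 9.96%, 1.47% and 5.96% of all. With block and covariate together, which was added after the data had been seen, 0 members were called at 24 h, 0 at 96 h, 1 for time in controls and 0 for time in cocultures; that fit called only 17 of all probe sets at 24 h and 6 at 96 h, with Dusp1 estimates of -2.53 and -2.90; in all 5 pairs of both times the covariate was higher with coculture. Cyclic loess left 3 at 96 h (24.9% of all) and turned the sign of Dusp6 1377064_at there (0.089, adjusted p = 0.885). With the compared groups alone, 0 were called for time in cocultures (0.0644% of all), and without replicate 5 in all groups (also added) 3 (6.88% of all). Leaving out 1 array gave 4 to 6 members at 24 h, 4 to 5 at 96 h and 0 to 3 for time in cocultures. The cause of these moves was not tested. Signal over background cannot be read from ratios, so dim probe sets could be set apart by the authors' present calls alone.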

Other observations

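In the fit without a block or covariate a few other genes of the pathway moved between 24 and 96 h in cocultures, and none of 84 in controls. In those controls 0.398% of all named genes were called by limma and no gene of these lists had an adjusted p under 0.05. In cocultures 2 of 84 rose and 3 fell, beside 0.969% of all named genes that rose and 1.3% that fell. The genes that rose were the immediate-early transcription factors Fos (3.52 ± 0.67, adjusted p = 0.00774) and Egr1 (1.98 ± 0.45, adjusted p = 0.0239). Over these same arrays Fos was most like Dusp6 1377064_at and 1382778_at, but it was not among the 3 most like 1387024_at. The genes that fell were the immediate-early gene Ier5 (-1.10 ± 0.21, adjusted p = 0.00774), the GDNF family receptor Ret (-1.11 ± 0.18, adjusted p = 0.00274) and the ubiquitin ligase Cblb (-0.56 ± 0.12, adjusted p = 0.0132). All 5 calls held with the replicate number as a block and with the hybridisation covariate. These 5 genes were named because they passed the test, after their values had been seen. More genes were called with either term. In controls 3 of 17 immediate-early genes rose with the block and 2 with the covariate, and 2 and 1 of 10 JNK and p38 genes. In cocultures 4 of 18 ERK cascade genes fell with the block and 1 with the covariate, and 1 rose in each. Those fits called 2.5% and 1.47% of all probe sets in controls, and 14.2% and 5.96% in cocultures.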
